A study of Mus musculus with 9 samples.

Results

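The clustered protocadherins are cell-surface adhesion proteins of the cadherin superfamily, encoded by 3 neighbouring gene clusters named alpha, beta and gamma. The genes described here are the protein-coding genes of these clusters in mouse hippocampus, chosen by matching each Ensembl identifier of the deposited table to a gene symbol in GENCODE M21. This gave 23 of the 14779 genes in the table, of which 1 was an alpha gene, 21 were beta genes and 1 was a gamma gene. M21 annotates 57 such genes, 14 alpha, 22 beta and 21 gamma, so 34 have no row of their own. On GRCm38 the clusters lie on the plus strand of chromosome 18, with alpha at 36930184 to 37187661, beta at 37264938 to 37524479 and gamma at 37661793 to 37841873.

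Polyadenylated RNA of hippocampus was sequenced from 3 groups of mice with 3 libraries each. Air+IgG mice were kept in air and given IgG. CIE+IgG mice went through chronic intermittent ethanol exposure (CIE), an alcohol dependence protocol, and were given IgG. CIE+IL17 Ab mice went through the same exposure and were given an antibody against interleukin 17A, and are also called the antibody group. The series' design text counts mice, so a library is read here as 1 mouse, and p-values measure the spread between these libraries. Strain, sex, age and the length of exposure are not given in the labels used here. The comparisons ask how the dependence protocol and the antibody alter hippocampal RNA.

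In neurons, each clustered protocadherin gene is driven by its own promoter, and a cell uses only some of the promoters, so that neighbouring neurons carry different sets of these proteins. The proteins bind copies of themselves on other cells, and this matching lets a neuron's branches recognise and avoid one another. Alpha and gamma transcripts join 1 variable first exon to constant exons shared by the whole cluster, whereas each beta gene is a single large exon with no constant part. Promoter choice depends on CTCF, cohesin and DNA methylation. The shared intracellular tail of alpha and gamma proteins acts on the kinases FAK and Pyk2, and alpha proteins bind the WAVE actin regulators.

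The gene structure sets what each value can be read as. In M21, 2860 exon bases are shared by over 80% of the alpha genes and 2119 by over 80% of the gamma genes, against 0 in beta. The highest identifier number in the deposited table is 96916, and all 33 missing alpha and gamma genes have higher ones. The alpha row carries the identifier that M21 names Pcdha11 (ENSMUSG00000007440), and the gamma row the one it names Pcdhgc4 (ENSMUSG00000023036). The gamma estimate was a whole number, within 0.05, in 9 of 9 libraries, the form that a count has when no read is divided between genes. The alpha estimate was whole in 1 library, but its sum with Gm10545, an antisense gene inside the alpha cluster, was whole in 9 of 9. In Air+IgG replicate 1, for example, the estimates of 1702.24 and 130.76 added to 1833, and the alpha row held 91.3% to 94.2% of that sum across the libraries. Reads of the alpha and gamma constant exons could therefore lie in these rows whichever variable exon they came from, and neither row is read as the level of a single isoform. Pcdhgc4 is the only one of the 5 C-type genes, the isoforms of alpha and gamma known for being expressed without random promoter choice, with a row. Its row cannot be told apart from the rest of the gamma cluster.

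Beta genes were counted one by one, with reads divided between close relatives. Only 24 of the 189 beta values were whole numbers, whereas the sum over the 21 beta genes was whole in 8 of 9 libraries. Of all 50-base stretches of a beta gene, 1.5% (Pcdhb14) to 12.0% (Pcdhb12) were also found in another beta gene. The pairs sharing most stretches were Pcdhb21 and Pcdhb22 with 442, whose annotated exons overlap by 455 bases, then Pcdhb11 and Pcdhb12 with 239 and Pcdhb7 and Pcdhb9 with 189. Values of these pairs are uncertain by the way the reads were divided.

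Library totals ran from 7372658 to 11894628 counts, and a beta gene had 30.8 to 400.39 counts in a library. All 23 genes passed the low-count filter, as did 14696 genes in all. Replicate 2 of Air+IgG and replicate 1 of the antibody group stood apart through the mitochondrial leucyl-tRNA synthetase gene Lars2, with 593544 and 495057 counts against at most 2167 in the other libraries. Of the 21 beta genes, 11 were highest in replicate 2 among the Air+IgG libraries, and 18 were highest in replicate 1 among the CIE+IL17 Ab libraries. Libraries without high Lars2 also stood apart. CIE+IgG replicate 2 was highest of its group for 14, CIE+IgG replicate 3 lowest for 13 and CIE+IL17 Ab replicate 2 lowest for 15. Beta genes thus tended to move together by library, so a count of members in 1 direction is not a count of separate results. Results that lost a call or moved clearly without the 2 Lars2-rich libraries are also given without them. Groups also differed in markers of regions and cell types. A list of 16 thalamus and habenula genes summed to 264 to 343 CPM (counts scaled to library size) in Air+IgG, 307 to 692 in CIE+IgG and 1510 to 2802 in the antibody group, and only Pou4f1 had 0 counts in any library. The 10 markers of CA1 pyramidal neurons, a principal cell type of hippocampus, summed to 728 to 829, 524 to 729 and 184 to 332 CPM. In bulk tissue, fewer cells of a type cannot be told apart from less RNA per cell.

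All 21 beta genes with a row were detected in every library, at levels spread over a 4.31-fold range per length. CPM per kb of annotated exon, averaged over the 9 libraries, was highest for Pcdhb16 at 6.08, Pcdhb9 at 5.90 and Pcdhb17 at 5.56, followed by Pcdhb19 at 4.63. The lowest level per kb was 1.41 for Pcdhb8, and the median beta gene had 2.57. These are adhesion receptors of one family, and no separate role in hippocampus is assigned here to any of them. For the first 3 genes in this order the ranges of CPM per kb over the libraries overlapped. They were measured in the same libraries, where beta genes tended to move together, so this overlap does not measure how far the genes differ. Their order was not tested. Of the 10 beta genes nearest the gamma cluster, 6 were among the 10 highest per kb. Each set holds 10 of the 21 genes, so some must coincide, and no trend along the cluster is read from this. Without division by length the order changed, with Pcdhb19 at 33.1 CPM above Pcdhb16 at 31.8 CPM, since Pcdhb19 has 7138 annotated exon bases and Pcdhb16 has 5225.

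**Figure D1:**
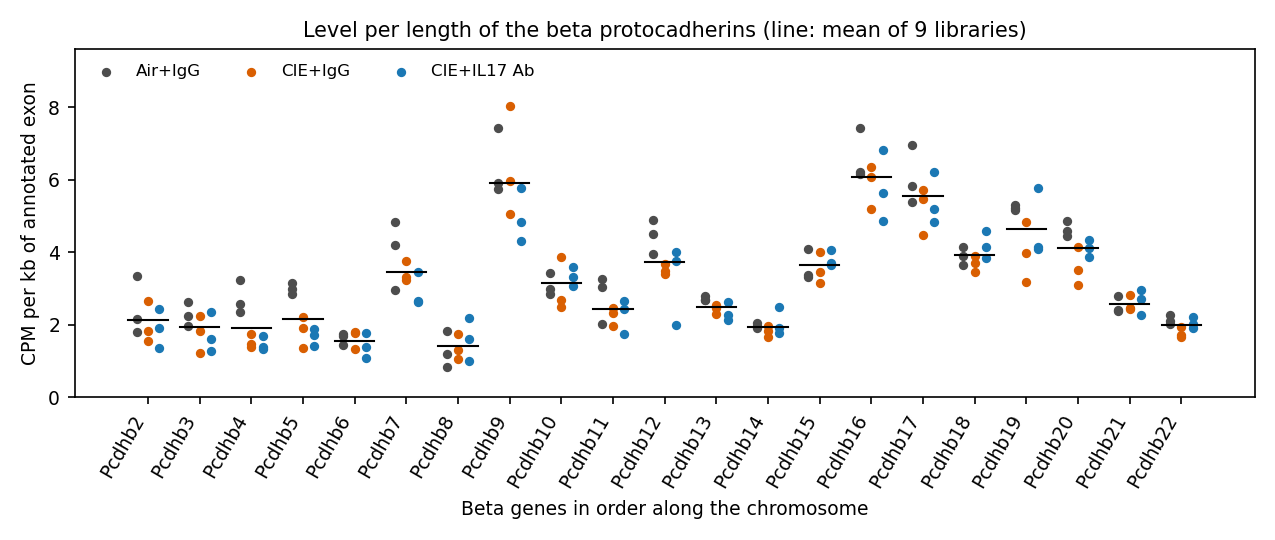
Points give CPM per kb of annotated exon (vertical axis) for each of the 21 beta genes in their order along the chromosome, 3 libraries per group, and a line marks the mean of all 9 libraries. Pcdhb16, Pcdhb9 and Pcdhb17 stand highest at 6.08, 5.90 and 5.56, and Pcdhb8 lowest at 1.41.

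Groups overlapped for the 3 beta genes highest per kb and for the lowest. Pcdhb16 had 32.50, 38.86 and 32.20 CPM in Air+IgG, 31.79, 33.12 and 27.12 in CIE+IgG, and 35.58, 25.36 and 29.43 in the antibody group. Pcdhb17 had 27.09, 32.41 and 25.10, then 25.45, 26.69 and 20.79, then 28.91, 24.18 and 22.47 CPM in the same order. Both genes were highest in Air+IgG replicate 2, and all 3 groups overlapped. Pcdhb9 had 17.55, 22.73 and 18.09 CPM in Air+IgG, 18.26, 24.58 and 15.47 in CIE+IgG, and 17.65, 13.15 and 14.77 in the antibody group. Pcdhb8 ranged from 2.94 to 7.64 CPM over the 9 libraries, with overlapping groups. The SD of log2 CPM within a group had a median of 0.22 over the 21 beta genes and ran from 0.10 (Pcdhb13 and Pcdhb18) to 0.51 (Pcdhb8). It was 0.21 over the 5717 tested genes in the same range of mean CPM. Counting error alone gives an SD of 0.14 at the median beta count of 105 and of 0.22 at the lowest mean count of 44.5, which limits what can be seen for genes such as Pcdhb8.

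At the level of whole clusters, the beta sum was lower in CIE+IgG than in Air+IgG, and the alpha and gamma rows were lowest on average in CIE+IL17 Ab. The beta genes together had 307, 335 and 301 CPM in Air+IgG, 264, 296 and 247 in CIE+IgG, and 319, 244 and 267 in the antibody group. The means were 314 ± 18.3, 269 ± 25 and 276 ± 38.5 (SD, n = 3). The CIE+IgG and Air+IgG libraries did not overlap, at a log2 ratio of means of -0.22. Without Pcdhb4 and Pcdhb5 the ratio was -0.19 and the groups overlapped, and without Air+IgG replicate 2 it was -0.17. The CIE+IL17 Ab libraries overlapped both other groups.

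The alpha row had 184, 192 and 174 CPM in Air+IgG, 184, 188 and 147 in CIE+IgG, and 151, 150 and 165 in the antibody group. All CIE+IL17 Ab libraries lay below all Air+IgG libraries, with means of 156 ± 8.56 and 183 ± 9.06 (SD, n = 3) and a log2 ratio of -0.24, or -0.14 when CPM were scaled by library total alone. The gamma row was the most abundant, with 674, 759 and 633 CPM in Air+IgG, 706, 708 and 681 in CIE+IgG, and 493, 545 and 682 in the antibody group. CIE+IL17 Ab replicate 3 lay with the other groups and its 2 companions lay below every other library. Without the 2 Lars2-rich libraries the log2 ratio of the antibody group to Air+IgG was -0.09 for the gamma row in place of -0.26, -0.18 for the alpha row and -0.25 for the beta sum in place of -0.18. Sums over a chosen set were not tested. The alpha and gamma rows were tested as single genes below.

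**Figure D2:**
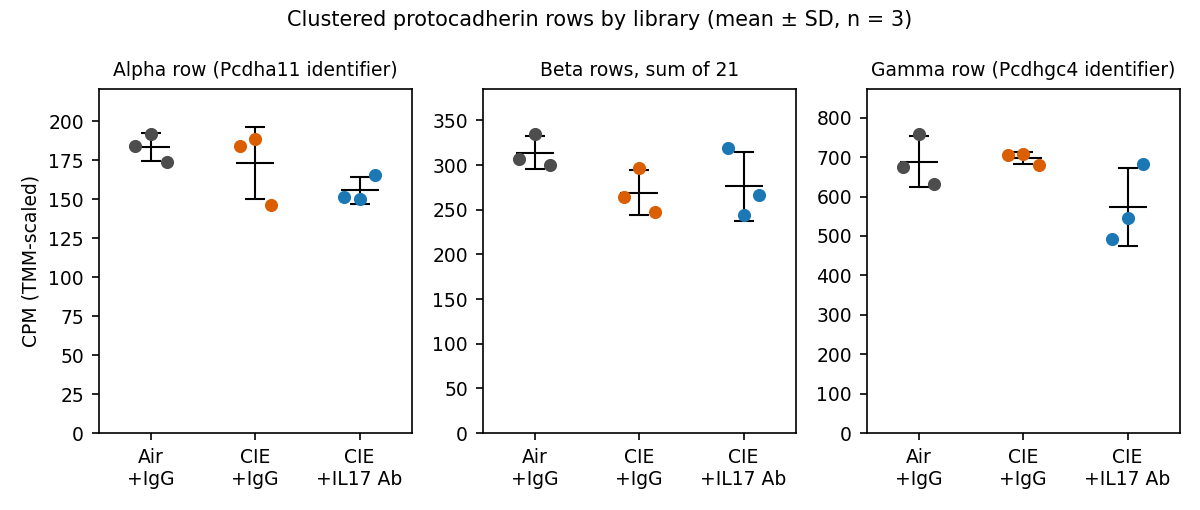
Each panel gives CPM after TMM scaling by group, with a point per library and the mean ± SD of 3. The beta sum runs from 301 to 335 in Air+IgG and from 247 to 296 in CIE+IgG, and the gamma row is at 493 and 545 in 2 of the 3 CIE+IL17 Ab libraries.

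Chronic intermittent ethanol with IgG, set against air with IgG, gave lower estimates for most clustered protocadherins, none past the threshold. Of the 23 genes, 19 had a log2 fold change below 0, which was so for 52% of all tested genes, and the median was -0.17 against -0.01 over all tested genes. By edgeR's quasi-likelihood test with Benjamini-Hochberg adjustment, 0 of 23 were called at an adjusted p under 0.05, and percent called over all genes was 0. At an unadjusted p under 0.05 there were 3 of 23, all lower, against 2.76% of all genes and 1.11% in that direction. These were Pcdhb4, Pcdhb5 and Pcdhb20. DESeq2 called 6 genes and limma-voom 0, with 0 members in either. The CIE+IgG libraries lay wholly below the Air+IgG libraries for 7 members, Pcdhb4, Pcdhb5, Pcdhb12, Pcdhb13, Pcdhb19, Pcdhb20 and Pcdhb22, against 4.8% of all genes, and wholly above for 0, against 4.64%. Without the 2 Lars2-rich libraries, 18 of 23 were below 0 and the median was -0.08.

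Markers of other regions and cell types also lay higher or lower in these libraries, with 0 genes of any list called, as of all genes. The 14 oligodendrocyte markers summed to 4393 to 4992 CPM in Air+IgG and 5010 to 7900 in CIE+IgG, which did not overlap, with a median fold change of 0.41 on the log2 scale and 1 of 14 below 0. The 14 striatal markers summed to 257 to 273 and 259 to 1389 CPM, with a median of 1.68 and 0 of 14 below 0, and the 12 choroid plexus markers to 843 to 5880 and 4549 to 8008 CPM, with a median of 1.01 and 0 of 12 below 0. The 12 meningeal fibroblast markers summed to 311 to 350 and 166 to 323 CPM, with a median of -1.10 and 11 of 12 below 0. Of these lists only the striatal gene Isl1 had 0 counts in any library. Among hippocampal neuron lists, 14 of 14 dentate gyrus granule cell markers were below 0, with a median of -0.24. For CA1 it was 8 of 10, with a median of -0.33, and for CA2 and CA3 pyramidal neurons 5 of 13, with a median of 0.09. Dcn, at -1.14, is on both the CA1 and the meningeal fibroblast lists and counts in each. Of the 14 pan-neuronal markers 10 were below 0, with a median of -0.07. The part of these marker differences in the lower protocadherin estimates was not tested.

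The largest differences of this comparison were those of 2 neighbouring genes near the alpha end of the beta cluster. Pcdhb4 lies at 37307455 to 37311172 on chromosome 18 and Pcdhb5 at 37320381 to 37323915, each annotated as a single exon. Pcdhb4 had 8.78, 11.97 and 9.57 CPM in Air+IgG, 5.48, 6.44 and 5.13 in CIE+IgG, and 5.14, 4.93 and 6.22 in the antibody group. Pcdhb5 had 10.08, 11.16 and 10.51 CPM in Air+IgG, 6.77, 7.84 and 4.75 in CIE+IgG, and 6.67, 5.01 and 6.01 in the antibody group. For both genes all 3 Air+IgG libraries lay above all 6 ethanol libraries, and the 2 ethanol groups overlapped. Air+IgG replicate 2 was the highest library for each. Their share of all beta CPM was also lower: Pcdhb4 made up 3.21% ± 0.35 in Air+IgG, 2.10% ± 0.05 in CIE+IgG and 2.0% ± 0.37 in the antibody group (SD, n = 3). The share of Pcdhb5 was 3.38% ± 0.10, 2.38% ± 0.40 and 2.14% ± 0.12 in the same order.

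**Figure D3:**
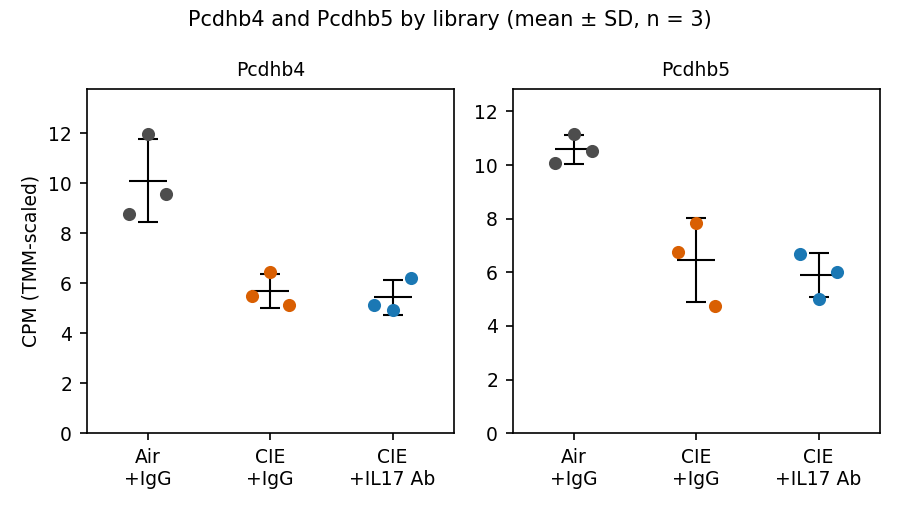
CPM after TMM scaling (vertical axis, from 0) of Pcdhb4 and Pcdhb5 by group, with a point per library and the mean ± SD of 3. The Air+IgG libraries run from 8.78 to 11.97 for Pcdhb4 and from 10.08 to 11.16 for Pcdhb5, above every library of both ethanol groups. Both genes were picked for their difference in these libraries.

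The log2 fold change from Air+IgG to CIE+IgG was -0.83 for Pcdhb4 (SE 0.18, 95% interval -1.25 to -0.41, edgeR unadjusted p = 0.0015) and -0.72 for Pcdhb5 (SE 0.20, interval -1.18 to -0.26, unadjusted p = 0.0065). Both had an adjusted p of 0.9997 by edgeR. Pcdhb20 had 16.36, 15.87 and 17.33 CPM in Air+IgG and 12.46, 14.75 and 11.00 in CIE+IgG, a log2 fold change of -0.38 (SE 0.13) that missed the threshold. Pcdhb22, Pcdhb19 and Pcdhb17, next by p, had log2 fold changes of -0.27, -0.39 and -0.21, and missed it too, with Pcdhb19 between -0.55 and -0.25 and Pcdhb17 between -0.29 and -0.11 when 1 library was left out. The gamma row had 0.02, with an interval of -0.27 to 0.31, and the alpha row -0.08, with an interval of -0.33 to 0.16. In annotated sequence, 32 stretches of 50 bases were common to Pcdhb4 and Pcdhb5, and 3.35% and 4.82% of their stretches occurred in any other beta gene. The estimate of each gene was a whole number in only 1 library, so reads of both were divided with other genes. The part of this division in their values was not tested.

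The labels carry 2 runs of numbers, 37 to 39 with 1 library in each group and 54 to 60 with the other 6, whose meaning is not given. Within 37 to 39 the log2 ratio of CIE+IgG to Air+IgG was -0.90 for Pcdhb4 and -1.14 for Pcdhb5, and within 54 to 60 it was -0.80 and -0.54. Every Air+IgG library lay above every ethanol library for both genes, so the direction had to be the same in both runs and adds nothing. The difference of Pcdhb5 was larger in the run with 1 library a group.

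The antibody, set against IgG within ethanol-exposed mice, left no clustered protocadherin past the threshold. In CIE+IL17 Ab against CIE+IgG, 0 of 23 genes were called by edgeR, against 3.18% of all genes, and 0 of 23 had an unadjusted p under 0.05, against 22.3%. DESeq2 and limma-voom also called 0 of 23. The estimates lay on both sides of 0, with 12 below (47.8% of all genes) and a median of -0.02, and the groups overlapped for all 23 genes, whereas they did not overlap for 25.9% of all genes. Without the 2 Lars2-rich libraries, 16 of 23 were below 0 and the median was -0.11. Pcdhb4 had a log2 fold change of -0.06 (interval -0.49 to 0.36) and Pcdhb5 of -0.13 (interval -0.60 to 0.34). A change by the point estimates between Air+IgG and CIE+IgG, -0.83 and -0.72, in either direction, lies outside these intervals. Those estimates are themselves uncertain, with intervals that reach -0.41 and -0.26, and both comparisons use the CIE+IgG libraries. Smaller changes in either direction lie inside the intervals, so a partial return toward Air+IgG cannot be judged. The smallest p belonged to the gamma row, at -0.28 (SE 0.13, edgeR adjusted p = 0.23). Without CIE+IL17 Ab replicate 3, its highest antibody library, this became -0.43 with an adjusted p of 0.0453 by edgeR, and without the Lars2-rich replicate 1 it became -0.19 with an adjusted p of 0.378. Pcdhb9, Pcdhb18, Pcdhb22, Pcdhb20 and the alpha row followed, with log2 fold changes of -0.36, 0.18, 0.20, 0.20 and -0.15, none past the threshold. With 1 library left out these ran from -0.51 to -0.16 for Pcdhb9, from 0.10 to 0.31 for Pcdhb20 and from -0.27 to -0.09 for the alpha row. Marker genes differed between these 2 groups, where 3.18% of all genes were called. Of the thalamus and habenula list 13 of 16 were called higher, with a median log2 fold change of 2.83. Of the CA1 markers 5 of 10 were called lower, with a median of -1.59. The part of these differences in the protocadherin estimates was not tested.

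With ethanol and the antibody set against air and IgG, Pcdhb4 and Pcdhb5 fell past the threshold. This comparison shares its Air+IgG libraries with the first and its antibody libraries with the second, so it is no separate test of either. By edgeR 2 of 23 genes were called, both lower, against 13.5% of all genes and 6.71% in that direction. The log2 fold change was -0.89 for Pcdhb4 (SE 0.19, interval -1.31 to -0.47, edgeR adjusted p = 0.0209) and -0.85 for Pcdhb5 (SE 0.21, interval -1.31 to -0.39, edgeR adjusted p = 0.0312), each lower in 3 of 3 libraries. Of the 23 genes, 17 were below 0, against 48.4% of all genes, with a median of -0.21 against 0.01, and 20 were below 0 without the 2 Lars2-rich libraries. Groups did not overlap, with the antibody group lower, for 5 members, the alpha row, Pcdhb4, Pcdhb5, Pcdhb13 and Pcdhb20, against 18.1% of all genes. The unadjusted p was under 0.05 for 3 members, the third being Pcdhb7 at -0.46, against 32% of all genes. The alpha row, the gamma row and Pcdhb12 were next, at -0.24, -0.26 and -0.47, none past the threshold. Pcdhb12 was at -0.20 without replicate 2 of the antibody group, the gamma row at -0.17 without its replicate 1, and Pcdhb7 at -0.31 without Air+IgG replicate 2.

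Both calls were close to the threshold. For Pcdhb4, edgeR's adjusted p was 0.0696 without Air+IgG replicate 2, 0.0610 without Air+IgG replicate 3, 0.0813 without CIE+IL17 Ab replicate 2 and 0.0709 without the 2 Lars2-rich libraries. For Pcdhb5, leaving out Air+IgG replicates 1, 2 and 3 gave 0.0736, 0.0911 and 0.0818. Its edgeR adjusted p was 0.0536 without CIE+IgG replicate 1, 0.113 without CIE+IL17 Ab replicate 2 and 0.0669 without the 2 Lars2-rich libraries. Over 21 fits, the main one among them, the log2 fold change stayed between -1.01 and -0.72 for Pcdhb4 and between -0.94 and -0.74 for Pcdhb5. The calls held in 15 and 13 of these 21 fits. Within label numbers 37 to 39 the log2 ratio was -0.96 for Pcdhb4 and -1.07 for Pcdhb5, and within 54 to 60 it was -0.87 and -0.74. The shared direction was fixed in advance here too, since the libraries of the 2 groups did not overlap for either gene. The gamma row was called without CIE+IL17 Ab replicate 3, at -0.42 with an edgeR adjusted p of 0.0372.

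Marker genes moved in the same comparison. Over all genes 13.5% were called and 6.71% were called lower. Of the thalamus and habenula list, 15 of 16 were called higher in CIE+IL17 Ab than in Air+IgG, and 6 of 10 CA1 markers were called lower. Also called higher were 10 of 14 oligodendrocyte markers, which summed to 4393 to 4992 CPM in Air+IgG and 6633 to 8087 in CIE+IL17 Ab. Called lower were 4 of 13 interneuron, 3 of 12 microglia and 3 of 12 meningeal fibroblast markers, with 0 called higher in each list. Of the 14 striatal markers 1 was called higher and 0 were below 0. Of the dentate gyrus granule cell markers 14 of 14 were below 0, with a median log2 fold change of -0.91 and 0 called. Of 13 CA2 and CA3 markers 3 were called higher and 3 lower. The summed pan-neuronal markers ran from 8143 to 8956 CPM in Air+IgG and from 6796 to 8168 in CIE+IL17 Ab. The part of these differences in the Pcdhb4 and Pcdhb5 values was not tested.

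**Figure D4:**
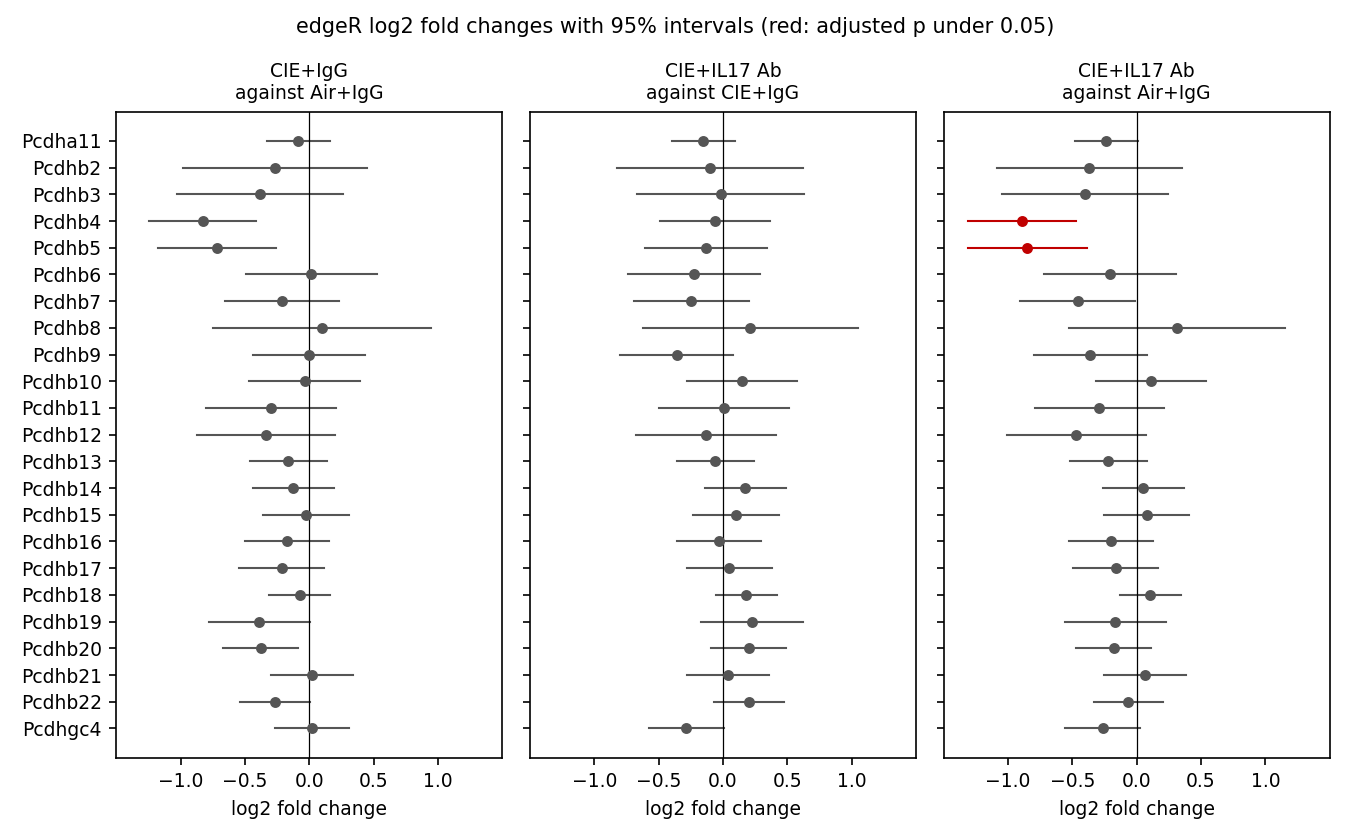
Log2 fold changes from edgeR (horizontal axis) with 95% intervals for the 23 genes in the 3 comparisons, red where the adjusted p was under 0.05. Pcdhb4 and Pcdhb5 lie at -0.83 and -0.72 in the first panel, near 0 in the second and at -0.89 and -0.85 in the third.

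Tested for any difference among the 3 groups in the same edgeR fit, Pcdhb4 was called, with an adjusted p of 0.0353, and 1 of 23 genes passed against 5.71% of all genes. Pcdhb5 had an adjusted p of 0.0600 by the same edgeR test. The Pcdhb4 call was lost without any 1 of Air+IgG replicates 1, 2 or 3, CIE+IgG replicates 1 or 2, or CIE+IL17 Ab replicates 1 or 2, with edgeR adjusted p-values from 0.0535 to 0.131.

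Genes that act with the clustered protocadherins, and relatives outside the clusters, had 0 calls between CIE+IgG and Air+IgG, where 0% of all genes were called. Counts in the other comparisons stand beside 3.18% of all genes called in CIE+IL17 Ab against CIE+IgG and 13.5% in CIE+IL17 Ab against Air+IgG. Of 27 tested regulators of promoter choice, among them CTCF, the cohesin subunits and their loaders, DNA methyltransferases and the TET demethylating enzymes, 0 were called in CIE+IgG against Air+IgG and 0 in CIE+IL17 Ab against CIE+IgG. In CIE+IL17 Ab against Air+IgG only Tet1, which oxidises methylated cytosine, was called, at 59.9 ± 6.60 against 45.3 ± 2.38 CPM (SD, n = 3) and a log2 fold change of 0.40 (edgeR adjusted p = 0.0483). Among the 9 libraries left out in turn, that call held only without replicate 3 of the antibody group, and edgeR's adjusted p was 0.0515 to 0.150 in the other 8 fits. Without the 2 Lars2-rich libraries the log2 fold change of Tet1 was 0.27 (edgeR adjusted p = 0.170). The median log2 fold change of the regulators was -0.03, -0.03 and -0.06 in the 3 comparisons.

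Of 23 binding partners and signalling genes, 0 were called in CIE+IgG against Air+IgG. In CIE+IL17 Ab against CIE+IgG 3 fell (3.18% of all genes called). In CIE+IL17 Ab against Air+IgG 8 fell and 1 rose (13.5% of all genes called, 6.71% called lower). The median log2 fold changes of the 23 genes were -0.08, -0.44 and -0.47, beside medians over all tested genes of -0.01, 0.01 and 0.01. The 3 were Brk1, Abi2 and Abi1, subunits of the WAVE complex that drives branched actin, and these were also among the 8. The largest change was that of Ret, the 1 that rose, with 34.4 ± 5.49 CPM in CIE+IL17 Ab and 4.90 ± 1.49 in Air+IgG (SD, n = 3). Its log2 fold change was 2.79 (edgeR adjusted p = 0.0149). Brk1 had 92.8 ± 3.78 CPM in Air+IgG, 86.8 ± 4.92 in CIE+IgG and 59.2 ± 5.17 in the antibody group (SD, n = 3), with log2 fold changes of -0.55 (edgeR adjusted p = 0.0242) and -0.65 (edgeR adjusted p = 0.0105) against the other 2 groups. Leaving out 1 library, the list's 9 calls ran from 0 (Air+IgG replicate 3) to 11 (replicate 3 of the antibody group), and its 3 calls against CIE+IgG became 0 without Air+IgG replicate 1 or 3, CIE+IgG replicate 1 or 2, or CIE+IL17 Ab replicate 2. Leaving out the 2 Lars2-rich libraries, Brk1 was still called, whereas Abi2 was not, with edgeR adjusted p-values of 0.0674 against CIE+IgG and 0.0502 against Air+IgG. CA1 markers were lower and thalamus and habenula markers higher in the same libraries, as given above, and their part in these differences was not tested.

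Relatives outside the clusters were counted beside them. Of 11 tested non-clustered protocadherins, 0 were called in CIE+IgG against Air+IgG, Pcdh20 fell in CIE+IL17 Ab against CIE+IgG, and Pcdh20 and Pcdh19 fell while Pcdh10 and Pcdh18 rose in CIE+IL17 Ab against Air+IgG. Pcdh20 had 219 ± 58.9 CPM in Air+IgG, 195 ± 56.6 in CIE+IgG and 52.2 ± 26.7 in the antibody group (SD, n = 3), a log2 fold change of -2.07 against Air+IgG. Of 19 classical cadherins, the calcium-dependent adhesion proteins, 0, 0 and 6 were called in the same order, 4 of the 6 higher, where 0%, 3.18% and 13.5% of all genes were called. Cdh11 fell by 0.68 and Cdh22 rose by 0.91 on the log2 scale. Without Air+IgG replicate 2 or 3 or CIE+IL17 Ab replicate 2, and for the classical cadherins also without Air+IgG replicate 1, the calls of both lists against Air+IgG became 0. The Pcdh20 call against CIE+IgG held only without replicate 3 of the antibody group or of CIE+IgG, with edgeR adjusted p-values of 0.0522 to 0.178 without any other 1 library. In the fit without the 2 Lars2-rich libraries, Pcdh20 was at -1.59 against Air+IgG (edgeR adjusted p = 0.0624) and -1.67 against CIE+IgG (0.0705), and Cdh22 at 0.64 (0.0548), all short of the threshold, whereas Pcdh19 and Cdh11 were still called.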

How the data were processed

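Hippocampal libraries (stranded, polyadenylated RNA) were grouped by sample title. The authors deposited 1 table of expected counts per gene, not scaled between libraries. The tools STAR 2.5.1a and RSEM 1.3.0 and the build GRCm38 come from the submitters' processing notes. For annotation release and filters, nothing is given in the sources used here. RSEM splits a read that matches several genes among them by estimate.

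Symbols, positions and exon lengths came from GENCODE M21 on GRCm38, which named 14628 identifiers. Counts were rounded to whole numbers, filtered with edgeR's filterByExpr (minimum count 10) and tested with edgeR 4.0.16 in R 4.3.3 (TMM, quasi-likelihood, robust) on all 9 libraries, with Benjamini-Hochberg adjustment over the 14696 genes tested and calls under 0.05. The standard error is the log2 fold change divided by the square root of F. The common biological coefficient of variation was 0.189. CPM values are TMM-scaled. The steps were tested on simulated data.

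Named members were those with the highest 3 and lowest 1 levels per length, the C-type genes, and in each comparison those called or the 6 of smallest p. Of other lists, up to 2 called genes a comparison were named, and further called genes were chosen after their values were seen. The members and gene lists were chosen with earlier results of these data known. Alternatives included DESeq2 1.42.0, limma-voom (limma 3.58.1), other scalings and filters, blocks, label numbers and each library left out. The labels do not say that replicate numbers pair libraries. Same-numbered replicates correlated from -0.27 to 0.25, which cannot decide this, as no values for differently numbered libraries stand beside them. No sequences are shown.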

Additional observations from a re-analysis of the deposited data

How the results depend on the processing

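No called result changed direction. CPM by library total gave an alpha log2 ratio of -0.14 between CIE+IL17 Ab and Air+IgG, and counts divided by exon length gave shares of the beta total of 6.93% for Pcdhb19 and 9.11% for Pcdhb16, in place of 11.5% and 11.1%. DESeq2 called 6 genes in CIE+IgG against Air+IgG, 1481 in CIE+IL17 Ab against CIE+IgG (468 by edgeR) and 2192 among the 3 groups (839 by edgeR). With the groups compared fitted alone, 1 gene was called in CIE+IL17 Ab against CIE+IgG and 1192 in CIE+IL17 Ab against Air+IgG (1990 with all libraries). Label numbers 54 to 60 alone gave 1, 2 and 2 genes in these 2 comparisons and among the 3 groups, with 0 members. The label number block gave 776 genes in CIE+IL17 Ab against CIE+IgG and 2 members among the 3 groups, where DESeq2 and limma-voom also called 2. At a threshold of 0.10 the counts were 1293, 3453 and 1918 genes, with 2 members among the 3 groups. Without the 2 Lars2-rich libraries, a choice made after seeing the data, 1067 and 316 genes were called in CIE+IL17 Ab against Air+IgG and among the 3 groups, with 0 members in each.

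Leaving out each library in turn gave 0 to 1313 genes and 0 to 1 members in CIE+IL17 Ab against CIE+IgG, 0 to 2305 genes and 0 to 3 members in CIE+IL17 Ab against Air+IgG, and 21 to 1335 genes and 0 to 2 members among the 3 groups. With the replicate number as a block, 14, 571 and 16 genes were called, with 0 members in each, and the adjusted p in CIE+IL17 Ab against Air+IgG was 0.0548 for Pcdhb4 and 0.0720 for Pcdhb5. Whether replicate numbers pair the libraries is not known, so these lost calls are a limit of both calls. The causes were not tested. Beta genes had 30.8 to 400.39 counts in a library, which limits the size of change that 3 libraries a group can show.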
